A study of Drosophila melanogaster with 6 samples.

Results

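The Cpr genes of Drosophila melanogaster encode cuticle proteins that carry the Rebers and Riddiford (RR) consensus, a chitin-binding stretch found in most structural proteins of the insect exoskeleton. Protein-coding genes of the Release 6 annotation whose symbol is Cpr followed by digits were taken, and Cpr alone, the gene of the cytochrome P450 reductase, was left out. This gave 70 genes of 13922 protein-coding genes on the chromosome arms 2L, 2R, 3L and 3R and the chromosomes 4 and X. The number in a Cpr symbol is the cytological band of the gene, so that genes sharing a number and a letter lie close together. Of the 70 genes, 35 lay on 3L, 21 on 2R, 5 on 2L, 5 on 3R and 4 on X.

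Insect cuticle is a layered composite of chitin fibres and proteins that epidermal cells secrete and renew at each moult. RR proteins bind the fibres, and different members are used in larval, pupal and adult cuticle and in special structures such as the corneal lens. Many cuticle genes arose by tandem duplication and stand in clusters of short genes. CAP-D3 is a subunit of Condensin II, a complex that compacts chromosomes in mitosis and binds interphase chromatin.

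CAP-D3 binding was measured by chromatin immunoprecipitation followed by sequencing (ChIP-seq) in S2R+ cells, an untreated cell line of embryonic origin that the labels assign to the strain Oregon R. The 6 samples were 2 precipitations with an antibody to dCAP-D3, 2 with non-specific IgG as the control, and 2 of input chromatin, from 2 separate experiments on chromatin cut with micrococcal nuclease. For each antibody 1 peak list, called against input, was used, so the lists carry no replicate spread and no test between conditions was possible. Read depth is unknown, no RNA was measured, and the identity of the cells could therefore not be checked against markers. Each peak carries the score that MACS gave it, on a −log10 scale of either p or q.

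The CAP-D3 list held 22108 peaks with a median score of 9.16, and the IgG list held 3915 peaks with a median score of 6.88. Scores in both lists went down to 2, and 9254 of the CAP-D3 peaks (41.9%) reached 10. The paper counts fewer CAP-D3 binding sites than this list holds, at a p-value cut that it states. Counts at any score therefore include weak peaks. A peak was assigned to a gene when it overlapped the gene span, extended by 1000 bp on both sides, by at least 1 bp. Shares of genes are given with 95% Wilson intervals, which cover counting error only and treat genes as independent, although neighbouring genes can share a peak.

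CAP-D3 peaks of any score were found at most Cpr genes, and peaks with a score of at least 10 at a minority of them. At least 1 CAP-D3 peak lay in the window of 50 of the 70 Cpr genes (71.4%, interval 59.9 to 80.7%), against 60.9% of the 13852 other protein-coding genes. A peak with a score of at least 10 lay in the windows of 32 Cpr genes (45.7%, interval 34.6 to 57.3%), against 36.7% of the other genes. Scores of at least 20 were reached at 3 Cpr genes (4.29%), against 3.00% of the other genes. An IgG peak lay in the windows of 9 Cpr genes (12.9%, interval 6.91 to 22.7%), against 16.0% of the other genes. In these 4 counts the share among the other genes fell inside the interval of the Cpr share, which for scores of at least 20 was 1.47 to 11.9%.

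Cpr genes are short. Their spans ranged from 457 bp at Cpr65Ax1 to 18590 bp at Cpr73D, with a median of 1093.5 bp, against a median of 2169 bp for the other protein-coding genes. The median number of CAP-D3 peaks per gene was 1 among Cpr genes and 1 among the others, and the means were 1.29 and 1.71 peaks. Among Cpr genes, 27 had 1 peak, 14 had 2, 5 had 3, 3 had 4 and 1 had 8.

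The comparison with genes of similar length gave a wider gap. When the other genes were weighted to the lengths of the Cpr genes in 5 equal bins, 71.4% of Cpr genes and 50.7% of the others had a CAP-D3 peak, a difference of 20.7 percentage points. Among genes with spans between the 10th and 90th percentile of the Cpr spans, 604.6 to 4738.8 bp, the shares were 71.4% (40 of 56, interval 58.5 to 81.6%) for Cpr genes and 56.3% for 9357 other genes. Without X and 4, these shares were 75.0% (39 of 52, interval 61.8 to 84.8%) and 63.3%, and the share of the others lay inside the Cpr interval. In the same length range over all chromosomes, 41.1% of Cpr genes (23 of 56, interval 29.2 to 54.1%) and 30.5% of the others had a peak that reached a score of 10. The Cpr interval held the share of the others. An IgG peak lay at 12.9% of Cpr genes and at 9.97% of the others when weighted by length, with the Cpr share higher in 3 of the 5 bins. Within the 10th to 90th percentile the IgG shares were 5.36% (3 of 56, interval 1.84 to 14.6%) and 9.81%.

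The gap was not even across lengths. In the shortest bin, 457 to 728 bp, 6 of 14 Cpr genes had a CAP-D3 peak (42.9%, interval 21.4 to 67.4%), against 34.5% of other genes. In the bin of 875 to 1341 bp the shares were 78.6% (11 of 14, interval 52.4 to 92.4%) and 49.2%, and in the bin of 1378 to 2529 bp they were 85.7% (12 of 14, interval 60.1 to 96.0%) and 57.5%. Among the longest genes, 2653 to 18590 bp, they were 85.7% (12 of 14) and 73.5%. In the bin of 731 to 871 bp, 64.3% of Cpr genes (9 of 14, interval 38.8 to 83.7%) and 38.7% of others had a peak. The share among other genes thus lay below the Cpr interval in the middle bins, by little in the bin of 731 to 871 bp, and inside it in the shortest and the longest bin. Without X and 4, the share of others in the bin of 731 to 871 bp was 44.1% and lay inside the Cpr interval of 38.8 to 83.7%.

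**Figure D1:**
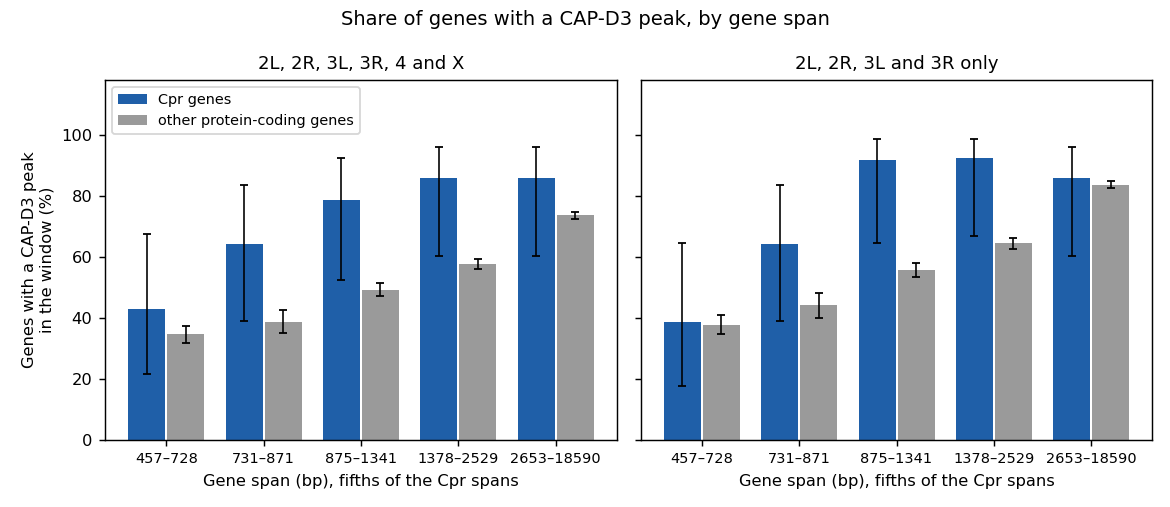
Percentage of genes with a CAP-D3 peak in the window (y axis) in 5 bins of gene span in bp (x axis), for Cpr genes (blue) and other protein-coding genes (grey), over all 6 chromosomes on the left and over 2L, 2R, 3L and 3R on the right. Error bars are 95% Wilson intervals; each Cpr bar on the left stands for 14 genes, and the gap is widest in the middle bins and small in the shortest bin.

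Few CAP-D3 peaks were called on chromosome X. On X, 24.8% of other protein-coding genes had a CAP-D3 peak, against 68.0% on 2L, 2R, 3L and 3R together. IgG peaks were also fewer on X, at 2.05% of other protein-coding genes, against 18.7% on those arms. The low share on X is therefore not particular to the CAP-D3 list. Only 1 of the 4 Cpr genes on X had a peak, Cpr5C, with a score of 4.88. Cpr11A lay 25543 bp, Cpr11B 34429 bp and Cpr12A 124875 bp from the nearest CAP-D3 peak, and the nearest IgG peak to any of the 4 was 16538 bp away. Without X and 4, 74.2% of Cpr genes (49 of 66) and 57.0% of length-weighted other genes had a CAP-D3 peak.

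By arm, all 5 Cpr genes on 2L and all 5 on 3R had a CAP-D3 peak, against 61.6% and 72.6% of other genes on those arms. On 3L the shares were 71.4% (25 of 35) for Cpr genes and 66.3% for other genes, and on 2R they were 66.7% (14 of 21) and 70.2%. On each of these 4 arms the share of other genes lay inside the interval of the Cpr share, which was 56.6 to 100% on 2L and on 3R, 54.9 to 83.7% on 3L and 45.4 to 82.8% on 2R.

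The 50 genes shared 85 distinct CAP-D3 peaks, of which 5 lay in the windows of more than 1 Cpr gene. Their scores ran from 3.14 at Cpr67Fa2 to 21.74 at Cpr35B, with a median of 9.99. A score of at least 10 was reached by 42 of the 85 peaks (49.4%, interval 39.0 to 59.8%), against 41.9% of all CAP-D3 peaks in the list. The highest score in the whole list was 141.35. Peaks at Cpr genes had a median length of 388 bp, and peaks of the whole list 324 bp.

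**Figure D2:**
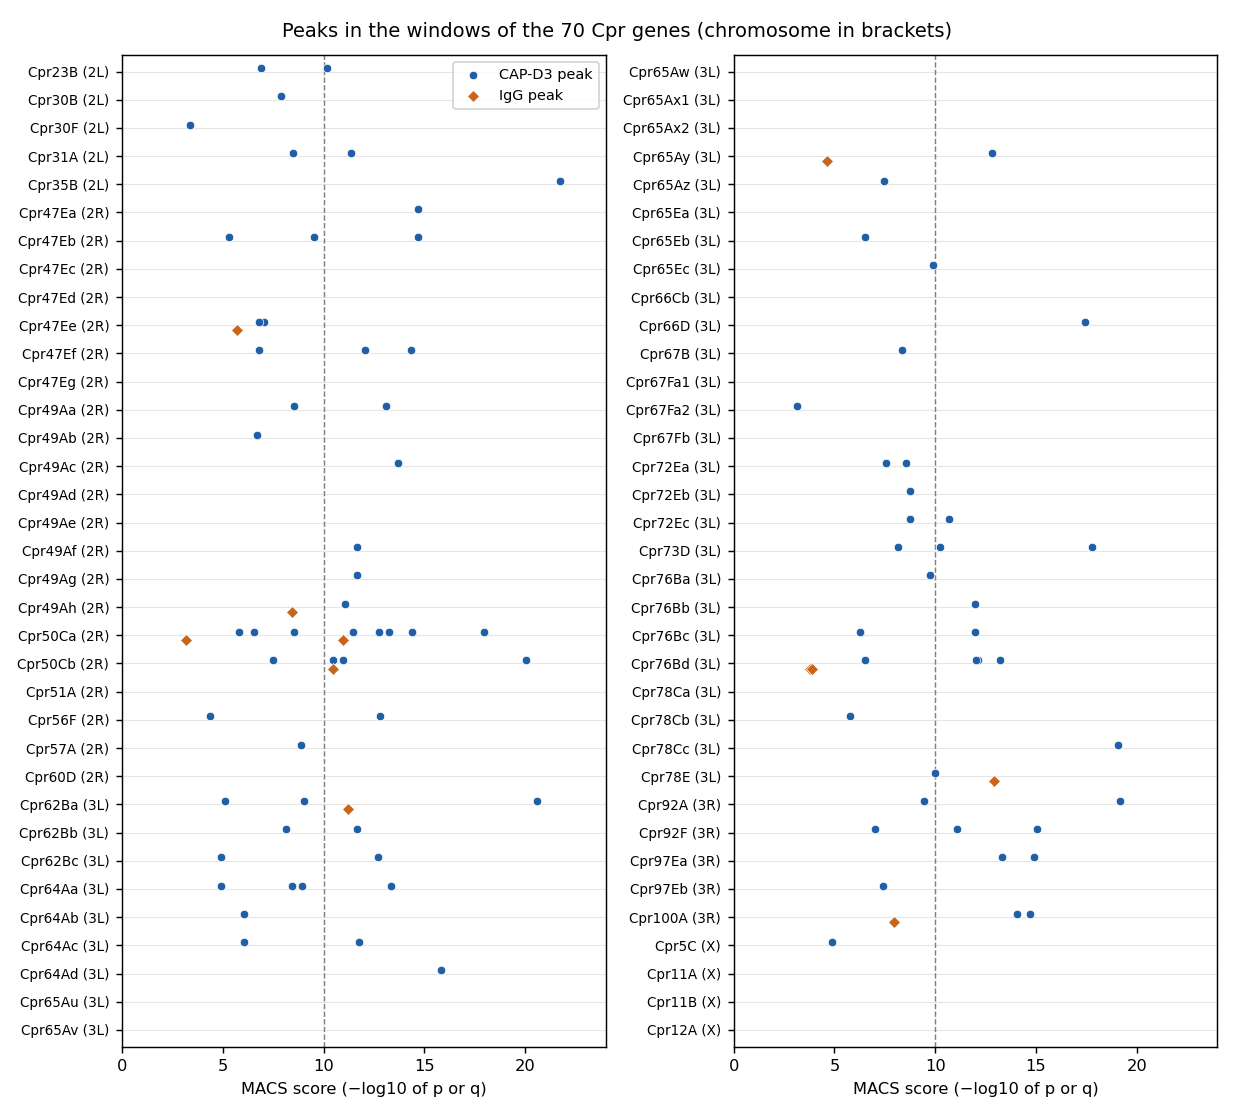
MACS score, −log10 of p or q (x axis), of every CAP-D3 peak (blue circles) and every IgG peak (orange diamonds) in the windows of the 70 Cpr genes (y axis, chromosome in brackets, IgG points drawn slightly lower). Rows with no point are genes with no peak, the dashed line marks a score of 10, and the highest CAP-D3 score is 21.74 at Cpr35B.

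The highest-scoring peak lay within Cpr35B, a single gene of 875 bp on 2L. This was MACS peak 2971 at chr2L:14424575-14424846, and 1.38% of the CAP-D3 list scored higher. No IgG peak overlapped it. The other Cpr peaks with scores of at least 20 were MACS peak 9831 at Cpr62Ba (chr3L:1825627-1826070, score 20.58) and MACS peak 6598 at Cpr50Cb (chr2R:13803091-13803363, score 20.03). Unlike the peak at Cpr35B, both of these overlapped an IgG peak, with scores of 11.19 and 10.49.

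Below a score of 20, strong peaks lay at single genes and at members of several clusters, among them Cpr50Ca (17.97) and Cpr73D (17.8), whose peaks are given with the long genes. Cpr92A on 3R had peaks scoring 19.17 and 9.44, the stronger of them MACS peak 17786 at chr3R:19597824-19598498. Cpr78Cc, a gene of 592 bp, had 1 peak scoring 19.05 (MACS peak 13336, chr3L:21300687-21301091). Cpr66D, which encodes a protein of the corneal lens, had 1 peak with a score of 17.41 (chr3L:8640456-8640969). Cpr72Ec, another lens protein gene, had weaker peaks, scoring 8.76 and 10.69. None of the peaks at Cpr92A, Cpr78Cc, Cpr66D and Cpr72Ec overlapped an IgG peak.

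Several further genes carried peaks of intermediate score. Cpr64Ad reached 15.82 and Cpr92F 15.03. Cpr97Ea had peaks scoring 14.9 and 13.31 in its window. The stronger overlapped CG14257 and no Cpr span, with its midpoint 1123 bp from Cpr97Ea. At Cpr100A, at the far end of 3R, the scores were 14.72 and 14.06. These peaks overlapped no IgG peak, although an IgG peak with a score of 7.96 lay elsewhere in the window of Cpr100A.

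Of the 32 genes with a score of at least 10, and apart from Cpr76Bd, whose highest score of 13.21 is given with the long genes, those not yet named stood between 14.69 and 10.15. The highest CAP-D3 score was 14.69 for Cpr47Ea and Cpr47Eb, which share that peak, 14.36 for Cpr47Ef, 13.69 for Cpr49Ac and 13.35 for Cpr64Aa. It was 13.11 for Cpr49Aa, 12.81 for Cpr65Ay, 12.79 for Cpr56F and 12.68 for Cpr62Bc. These 9 genes lie on 2R and 3L, and all but Cpr56F belong to clusters. The highest score was 11.98 for Cpr76Bb and Cpr76Bc, again a shared peak, 11.78 for Cpr64Ac, 11.68 for Cpr62Bb, 11.67 for Cpr49Af and Cpr49Ag, which also share theirs, 11.37 for Cpr31A, 11.06 for Cpr49Ah and 10.15 for Cpr23B.

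Long genes gathered the most peaks. Cpr50Ca, with a span of 17888 bp, had 8 CAP-D3 peaks, the most of any Cpr gene, with scores of 13.24, 14.4, 12.76, 6.53, 8.54, 17.97, 5.8 and 11.44 from left to right along 2R. S-Lap7, a leucyl aminopeptidase gene, lies inside this span, and the peak scoring 8.54 overlapped it. The midpoints of all 8 peaks fell within the span, and the peaks scoring 6.53 and 17.97 each overlapped an IgG peak. The neighbouring Cpr50Cb, of 10455 bp, had 4 peaks, with scores of 10.98, 10.47, 7.51 and 20.03.

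Cpr73D, the longest Cpr gene at 18590 bp, had only 3 peaks, with scores of 10.23, 17.8 and 8.17, all toward its left end, with midpoints 461, 1224 and 4143 bp from it. Ogdh, which encodes a subunit of the oxoglutarate dehydrogenase complex, and Obp73a, an odorant-binding protein gene, overlap the span of Cpr73D, but none of the 3 peaks overlapped them. Among shorter genes, Cpr64Aa with 1341 bp and Cpr76Bd with 5547 bp each had 4 peaks. Those at Cpr76Bd scored 12.14, 13.21, 12.04 and 6.53, and the second of them was the longest peak at any Cpr gene, 2085 bp (MACS peak 12954, chr3L:19534708-19536792). The peaks scoring 13.21 and 6.53 each overlapped an IgG peak. The peak scoring 6.53 overlapped the genes Dred and CG46434 and no Cpr span.

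IgG peaks lay at 9 Cpr genes, each of which also had a CAP-D3 peak. The IgG scores were 12.9 at Cpr78E, 11.19 at Cpr62Ba, 10.94 and 3.16 at Cpr50Ca and 10.49 at Cpr50Cb. They were 8.42 at Cpr49Ah, 7.96 at Cpr100A, 5.71 at Cpr47Ee, 4.63 at Cpr65Ay, and 3.9 and 3.81 at Cpr76Bd. Of these 11 IgG peaks, 10 overlapped a CAP-D3 peak, against 79.2% of the whole IgG list.

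At Cpr78E, a gene of 529 bp, the IgG score of 12.9 was higher than the CAP-D3 score of 9.99. Scores of separate lists depend on the depth of each library and are set side by side here without a test. Of the 85 CAP-D3 peaks at Cpr genes, 10 overlapped an IgG peak (11.8%, interval 6.52 to 20.3%), against 13.9% of the whole CAP-D3 list. Of the 42 peaks that reached a score of 10, 14.3% overlapped an IgG peak, as did 2 of the 3 that reached 20. When CAP-D3 peaks overlapping any IgG peak were left out, 47 Cpr genes (67.1%) kept a CAP-D3 peak, against 47.5% of length-weighted other genes.

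The peaks lay mostly over the genes themselves. Of the 85 CAP-D3 peaks, 71 overlapped the span of a Cpr gene (83.5%, interval 74.2 to 89.9%), and 63 had their midpoint inside one (74.1%). A further 7 overlapped only the span of another protein-coding gene, and 7 overlapped no protein-coding span. Among Cpr genes, 44 had a peak over the span (62.9%), against 32.9% of length-weighted other genes. A further 6 had a peak in the flank only: Cpr47Ea, Cpr49Ab, Cpr49Af, Cpr64Ab, Cpr65Ay and Cpr72Eb. At Cpr65Ay the peak, MACS peak 10937 at chr3L:6157243-6157590, overlapped the neighbouring gene CG13297 and an IgG peak.

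Within the 10th to 90th percentile of span, 66.7% of 60 pairs of a Cpr gene and a peak had the midpoint in the span, against 57.8% of 8895 pairs of another gene and a peak, although spans made up 41.6% and 49.6% of the window lengths. The interval of the Cpr share was 54.1 to 77.3%, and held the other share. In the same length range, 7 of 60 Cpr pairs (11.7%, interval 5.77 to 22.2%) had the midpoint within 150 bp of a gene end, against 2.80% of the other pairs. Over the whole CAP-D3 list, 2.76% of midpoints lay that close to a gene end. After the peaks were moved by 500 to 5000 bp the share was 7.97 to 8.94%. The part of the windows that lies this close to gene ends was not measured, so these values do not show that Cpr peaks gather there.

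In all, 9 of the 85 peaks had a midpoint within 150 bp of a Cpr gene end. The distances were 2 bp at Cpr62Bc, 21 bp at Cpr100A, 25 bp at Cpr49Ag, 26 bp at Cpr92F, 37 bp at Cpr72Ec, 39 bp at Cpr64Aa, 105 bp at Cpr47Ee, 120 bp at Cpr50Cb and 143 bp at Cpr76Bd. Scores of these peaks ranged from 4.89 at Cpr62Bc to 15.03 at Cpr92F. Strand was not used here, so that starts and ends of transcripts could not be told apart.

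To compare gene clusters with single genes, runs of at least 2 Cpr genes with at most 10000 bp between neighbouring spans were called clusters. This gave 13 clusters of 2 to 7 genes, holding 49 genes, and 21 single genes. A CAP-D3 peak lay at 35 of 49 clustered genes (71.4%, interval 57.6 to 82.2%) and at 15 of 21 single genes (71.4%, interval 50 to 86.2%). The difference was 0 percentage points, with a 95% interval from −20.2 to 23.9, so that sizeable differences in either direction lie inside it. Peaks with a score of at least 10 lay at 46.9% of clustered and 42.9% of single genes, and IgG peaks at 14.3% and 9.52%.

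The groups differed in other respects. Clustered genes had a median span of 941 bp and single genes 1454 bp. All 4 Cpr genes on X were single, and without them 71.4% of clustered and 82.4% of single genes (14 of 17) had a CAP-D3 peak. Per 10 kb of merged window, clustered genes had 3.32 CAP-D3 peaks and single genes 2.56, or 2.87 without X. Within the 10th to 90th percentile of span, Cpr genes had 3.14 and other protein-coding genes 2.32. Without X and 4 these values were 3.33 and 2.66. Each peak touching a window is counted here, so these values differ in kind from densities of midpoints.

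Clusters differed widely among themselves. In 6 of the 13, every gene had a CAP-D3 peak: 50C, 62B, 64A, 72E, 76B and 97E. The share was 4 of 7 genes in 47E, 3 of 4 in the cluster of Cpr49Aa to Cpr49Ad, 3 of 4 in that of Cpr49Ae to Cpr49Ah, 2 of 3 in 65E, 2 of 3 in 78C, 1 of 3 in 67F and 2 of 7 in 65A. Within 47E, the genes Cpr47Ea, Cpr47Eb, Cpr47Ee and Cpr47Ef had peaks, while Cpr47Ec, Cpr47Ed and Cpr47Eg lay 3167, 3004 and 4090 bp from the nearest one.

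**Figure D3:**
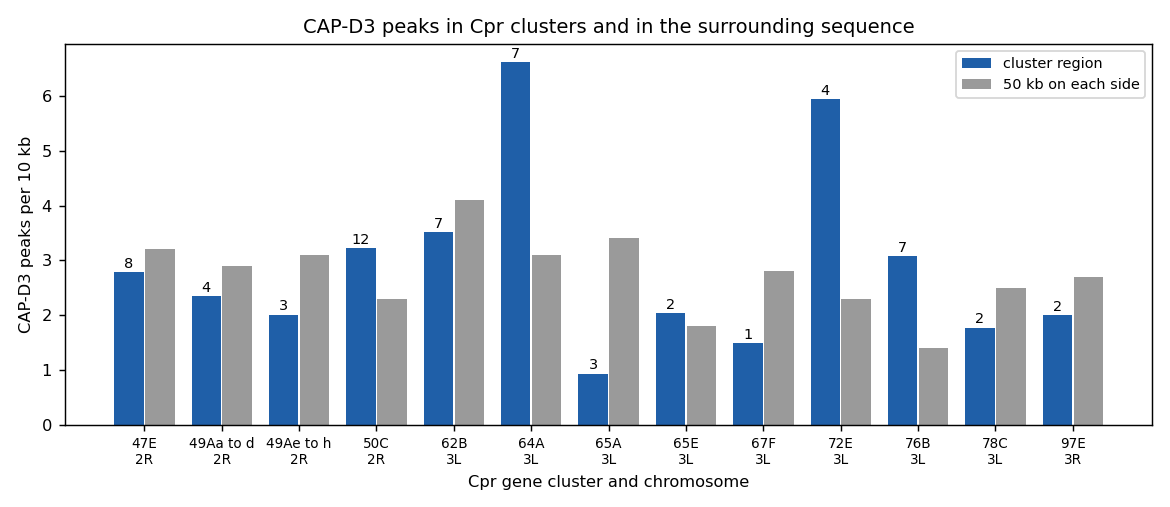
CAP-D3 peaks per 10 kb (y axis) in each of the 13 Cpr clusters (blue, with the number of peaks above the bar) and in the 50 kb on each side of it together (grey), by cluster and chromosome (x axis). Densities run from 0.927 in 65A to 6.62 in 64A, and 5 clusters stand above their surroundings.

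Peak density was set against the surroundings by counting peak midpoints in each cluster and in the 50000 bp on both sides. Of the 13 clusters, 5 were denser than their surroundings and 8 were sparser, and the medians over clusters were 2.34 peaks per 10 kb in the clusters and 2.8 around them. The densest was 64A, with 6.62 peaks per 10 kb against 3.1 around it, followed by 72E with 5.94 against 2.3. Density was 3.22 in 50C against 2.3 around it, 3.08 in 76B against 1.4, and 2.03 in 65E against 1.8. These clusters hold between 2 and 12 peaks each, so that single peaks move the values.

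All 7 peaks of 64A fell inside CG43367, a long gene that contains all 4 Cpr genes of the cluster, so that the peaks cannot be assigned to the Cpr genes rather than to CG43367. Their scores ran from 4.89 to 15.82, and none overlapped an IgG peak. In 76B, the 7 peaks covered all 4 genes, and 2 of them, both at Cpr76Bd, overlapped an IgG peak.

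**Figure D4:**
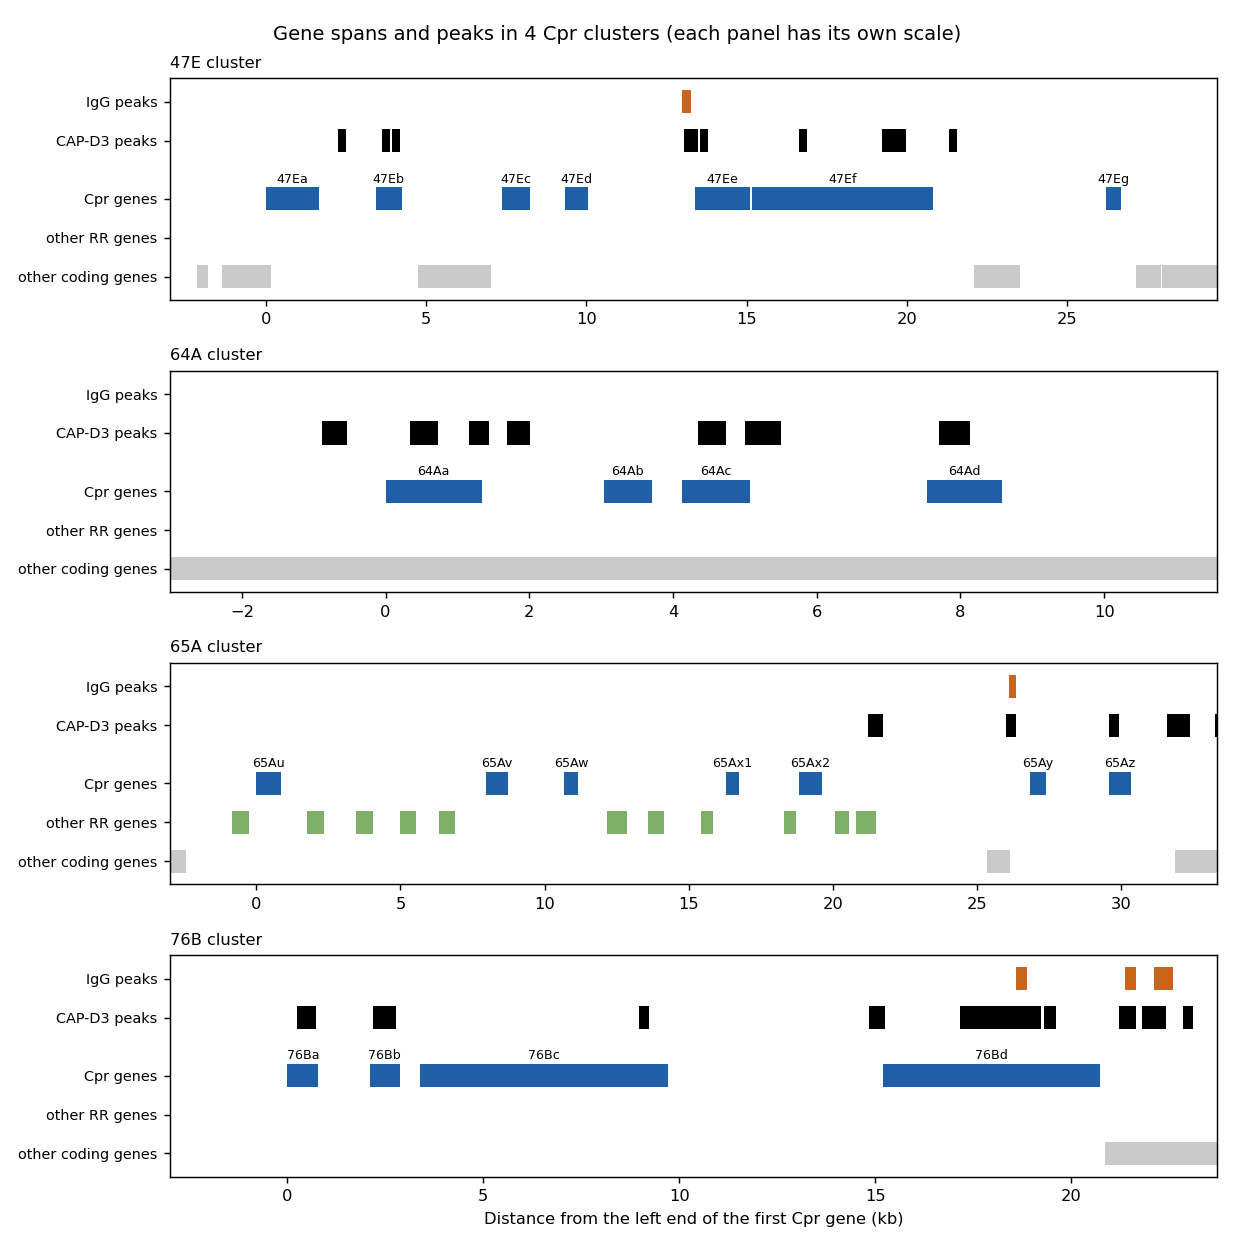
Maps of 4 Cpr clusters by distance from the left end of the first Cpr gene in kb (x axis, a separate scale in each panel), with IgG peaks (orange), CAP-D3 peaks (black), Cpr genes (blue), other RR genes (green) and other protein-coding genes (grey) in rows. The peaks of 64A lie inside 1 long gene, 76B has peaks at all 4 genes, and 65A has no CAP-D3 peak over its first 5 Cpr genes.

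The 65A cluster was the sparsest, with 0.927 peaks per 10 kb against 3.4 around it. Cpr65Au, Cpr65Av, Cpr65Aw, Cpr65Ax1 and Cpr65Ax2 had no CAP-D3 peak, Cpr65Az had 1 scoring 7.44 and Cpr65Ay had the flanking peak scoring 12.81. A stretch of 29584 bp, chr3L:6122886-6152469, held neither a CAP-D3 nor an IgG peak. It runs between MACS peak 10935, with a score of 13.06, and MACS peak 10936, with a score of 7.44.

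Inside the stretch were 16 protein-coding genes: the 5 Cpr genes named above, 10 larval cuticle protein genes of the Lcp65A group and l(3)mbn. Stretches at least as long made up 2.55% of the gaps between neighbouring CAP-D3 peaks on 3L (124 of 4866), and the median gap was 2187 bp. This is a share of the number of gaps, and gaps this long take up a larger share of the length of the arm. The stretch was also picked out after the values were seen. Cpr65Ax1 and Cpr65Ax2 are named as copies of each other, as are Cpr67Fa1 and Cpr67Fa2. Inside the stretch, Lcp65Ag1, Lcp65Ag2 and Lcp65Ag3 are named in the same way, as are Lcp65Ab1 and Lcp65Ab2. Reads from near-identical copies can be split or lost in mapping, so that the values of all these genes are uncertain. The same limit bears on the lack of peaks in parts of the stretch. Without the 7 genes of 65A, 78.6% of clustered genes had a CAP-D3 peak, against 71.4% of single genes.

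The 20 Cpr genes without a CAP-D3 peak were shorter, with a median span of 802 bp, than the 50 with a peak, with a median of 1275 bp. They were 14 clustered genes and 6 single genes. Outside 47E, 65A and X, they were Cpr49Ad, Cpr49Ae, Cpr51A, Cpr60D, Cpr65Ea, Cpr66Cb, Cpr67Fa1, Cpr67Fb and Cpr78Ca. Their nearest peak was 1041 to 124875 bp away, with a median of 3085.5 bp, and for 13 of the 20 it was within 5000 bp. Closest to the limit of 1000 bp were Cpr49Ad at 1041 bp and Cpr67Fa1 at 1435 bp on the outside, and Cpr64Ab at 646 bp and Cpr47Ea at 601 bp on the inside.

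Other genes of the cuticle pathway were counted in the same windows. Of 28 RR genes with other symbols, 12 had a CAP-D3 peak (42.9%, interval 26.5 to 60.9%), and 6 had a peak with a score of at least 10. Their median span was 749.5 bp, and 5 of them had an IgG peak. Among protein-coding genes of 731 to 871 bp outside the Cpr family, 38.7% had a CAP-D3 peak and 7.62% an IgG peak. The CAP-D3 share of 38.7% lay inside the interval of this list. At any length, 36.7% of genes outside the Cpr family had a CAP-D3 peak with a score of at least 10. Among the 28 RR genes, 9 of the 11 Lcp65 and Acp65Aa genes at 65A had no CAP-D3 peak. On 3R, 5 of 7 Ccp84A genes had at least 1. The limit on mapping near-identical copies at 65A bears on the first of these counts. Of genes outside the Cpr family, 66.3% on 3L and 72.6% on 3R had a CAP-D3 peak. The share was 34.5% for those of 457 to 728 bp on any chromosome. The highest score among the 28 RR genes was 20.71 at Crys, which encodes a lens protein. Next were 19.07 at resilin, the gene of an elastic cuticle protein with 5 peaks, and 18.12 at Ccp84Ad.

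The Tweedle genes encode a separate family of cuticle proteins that affect body shape. Of 25, 18 had a CAP-D3 peak (72.0%, interval 52.4 to 85.7%), with 17 of 19 on 3R and 0 of 4 on X, and 5 had an IgG peak. Among all protein-coding genes outside the Cpr family, the CAP-D3 shares were 60.9%, 72.6% on 3R and 24.8% on X. The IgG share was 16.0%. The highest score was 27.56, of a peak shared by TwdlF and TwdlG, which was above every score at a Cpr gene. Tweedle genes resembled Cpr genes in length, with a median span of 1088 bp. Of genes of 875 to 1341 bp outside the Cpr family, 49.2% had a CAP-D3 peak.

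Of 10 genes for chitin synthesis and organisation, 9 had a CAP-D3 peak (90%, interval 59.6 to 98.2%), but their median span was 5297.5 bp. Of genes of 2653 to 18590 bp outside the Cpr family, 73.5% had a CAP-D3 peak, which lay inside this interval. The chitin synthase genes kkv and Chs2 had 6 and 5 peaks, and the chitin deacetylase genes serp and verm had 4 and 3. The exception was rtv on X, 25592 bp from the nearest peak, while obst-A, also on X, had 3 peaks with scores of up to 21.96.

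Of 9 genes of cuticle tanning and pigmentation, 6 had a CAP-D3 peak (66.7%, interval 35.4 to 87.9%). Their median span was 6170 bp, and the share of 73.5% for genes of 2653 to 18590 bp outside the Cpr family lay inside this interval. The arylalkylamine N-acetyltransferase gene speck had 8 peaks with scores of up to 24.42, e had 5, and the tyrosine hydroxylase gene ple had 4 with scores of up to 23.52. The dopa decarboxylase gene Ddc and b had 2 each and Pu had 1. The laccase gene stw on 2R and the genes y and t on X had none. These lists are small and differ in length and chromosome from the Cpr genes, and no difference between them was tested.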

How the data were processed

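Peak lists of dCAP-D3 and IgG ChIP from S2R+ cells were used as deposited. The submitters' processing notes name CASAVA 1.4, Trim Galore 0.3.7, cutadapt 1.8, FastQC 0.11.3, Bowtie 1.0.0 and MACS2 2.0.9. The authors called peaks for each antibody against input, and the deposited score of each peak is −log10 of a p-value or q-value; which of these it is, and how the experiments were combined, is not given in the sources used here. Because MACS tests reads against input, the score rises with depth as well as with enrichment. The text of the paper names the cells S2, the labels S2R+, and the sources differ in the amount of nuclease and the number of experiments.

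Gene names and spans came from the RefSeq Release 6 plus ISO1 MT annotation, without strand, exons or sequence, and no gene coordinates are printed. The labels name no genome build. The match was checked by moving the CAP-D3 peaks: 2.76% of midpoints lay within 150 bp of a gene end in place, against 7.97 to 8.94% after moves of 500 to 5000 bp. Peak starts were converted to count from 1.

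Peaks were counted in gene spans extended by 1000 bp, and midpoints were used for position and density. Intervals are 95% Wilson intervals, and the interval of a difference was built from them by Newcombe's method. With 1 list per antibody, no test was run. Genes are named if they had a CAP-D3 peak of score 10 or more (for more than 30, the 30 with the highest scores) or an IgG peak, had the most CAP-D3 peaks or the longest span, or belonged to a cluster; others, such as Cpr23B, were named after their values were seen. The members, the lists and the windows were chosen with earlier results of these data known. The counting was tested on simulated peaks. Alternatives were score limits of 10 and 20, flanks of 0 and 5000 bp, other cluster gaps, other length matching, and leaving out X and 4, peaks overlapping IgG, or 65A. Python 3.11.15, pandas 2.3.3, numpy 2.4.6, scipy 1.17.1 and matplotlib 3.10.9 were used. A planned motif search in promoters was not run.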

Additional observations from a re-analysis of the deposited data

How the results depend on the processing

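The number of Cpr genes with a CAP-D3 peak was 50, and 32 with scores of at least 10 and 3 with scores of at least 20. The number of distinct CAP-D3 peaks was 85, and 42 and 3 at these limits and 154 with flanks of 5000 bp. The number of Cpr genes with an IgG peak was 9, and 4 and 0 at these limits and 20 with flanks of 5000 bp. The length-weighted difference between Cpr genes and other genes, 20.7 percentage points, was 2.41 points with scores of at least 20. At that limit 3 Cpr genes were counted. Under the other weighted alternatives it ran from 10.8 points with flanks of 5000 bp to 29.9 points with no flank. Without length matching the difference was 10.5 points, with an interval from −0.965 to 19.8. Within the 10th to 90th percentile of span it was 15.1 points. The difference between clustered and single genes, 0 points, ranged from −12.2 points with no flank to 12.9 points with flanks of 5000 bp and was −10.9 points without X and 4. Leaving out the 65A cluster, an alternative chosen after seeing the data, gave 7.14 points. No paired analysis was possible because a single list of peaks stands for both experiments of an antibody, and no replicate could be left out for the same reason. Without read counts, a missing peak cannot be told apart from one below the depth of these libraries.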
